A study of Mus musculus with 30 samples.

Results

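The 10 core genes of the circadian clock Arntl, Clock, Per1, Per2, Per3, Cry1, Cry2, Nr1d1, Nr1d2 and Dbp were followed in RNA-seq counts from 5 mouse tissues. They were found by matching the deposited Ensembl identifiers to mouse symbols, and all 10 matched 1 row each among the 48709 genes of every table. The series holds 30 libraries of adult mice of the C57BL/6 strain, from brain, spleen, kidney, liver and quadriceps femoris (muscle). Each tissue has 3 control libraries (wild type, WT) and 3 Ctcf haploinsufficient ones (Ctcf+/-, called heterozygous here). Ctcf encodes a DNA-binding protein that organises chromatin loops. The design text gives 3 mice per genotype, so the tissues came from shared animals, and the libraries carry replicate numbers 1 to 3, but the labels do not say that a number marks a mouse, a litter or a day. Sex, exact age, time of day of tissue collection and how the allele was made are not given in the sources used here. Libraries of a group are treated as separate mice.

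The circadian clock is a transcription feedback loop that runs in nearly every cell. ARNTL (also called BMAL1) and CLOCK bind E-boxes and activate Per, Cry, Nr1d and Dbp genes. PER and CRY proteins then repress ARNTL and CLOCK, NR1D1 and NR1D2 (REV-ERB alpha and beta) repress Arntl through ROR elements, and DBP activates genes through D-boxes. In peripheral tissues such as liver, Dbp and Nr1d1 messenger RNA peaks when Arntl is near its trough, so the level of Dbp relative to Arntl within a sample moves with the time of day. The suprachiasmatic nucleus of the hypothalamus sets the phase of the peripheral clocks.

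The promoter sequences of 6 members are shown because the members are tied together by these elements. RefSeq promoter windows (build GRCm38.p6) existed for 9 of the 10 members, all but Per2. The 250 bases before each annotated start were searched on both strands for the E-box CACGTG, the E-prime box CACGTT, the D-box TTATGNAA and the ROR/REV-ERB element ANTNGGTCA. Capitals mark a match, sequences run 5′ to 3′ on the gene's strand, and positions count back from -1, the base before the start. The Per1 line leaves out the base at -1, which an annotated exon covers.
Per1, chr11:69098699-69098947, plus strand: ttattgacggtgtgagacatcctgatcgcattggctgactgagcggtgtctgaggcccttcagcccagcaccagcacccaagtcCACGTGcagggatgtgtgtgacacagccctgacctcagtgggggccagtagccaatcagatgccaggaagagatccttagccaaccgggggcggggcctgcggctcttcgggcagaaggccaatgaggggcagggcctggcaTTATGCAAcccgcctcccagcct
Per3, chr4:151044666-151044915, minus strand: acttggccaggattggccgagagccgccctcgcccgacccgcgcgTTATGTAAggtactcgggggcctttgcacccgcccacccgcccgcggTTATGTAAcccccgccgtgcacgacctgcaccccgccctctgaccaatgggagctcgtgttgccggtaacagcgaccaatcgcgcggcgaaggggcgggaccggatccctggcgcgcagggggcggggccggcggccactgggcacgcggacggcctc
Cry1, chr10:85185055-85185304, minus strand: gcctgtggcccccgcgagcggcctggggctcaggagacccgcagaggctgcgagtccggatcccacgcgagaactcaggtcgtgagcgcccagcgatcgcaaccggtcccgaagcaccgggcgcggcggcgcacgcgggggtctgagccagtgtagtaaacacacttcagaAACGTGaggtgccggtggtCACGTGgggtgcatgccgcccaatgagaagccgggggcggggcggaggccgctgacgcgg
Cry2, chr2:92434070-92434319, minus strand: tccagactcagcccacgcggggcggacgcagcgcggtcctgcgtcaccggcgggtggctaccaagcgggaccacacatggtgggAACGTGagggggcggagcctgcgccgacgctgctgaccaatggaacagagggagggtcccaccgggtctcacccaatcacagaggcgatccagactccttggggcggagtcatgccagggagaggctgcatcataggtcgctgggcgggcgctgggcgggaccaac
Nr1d1, chr11:98775378-98775627, minus strand: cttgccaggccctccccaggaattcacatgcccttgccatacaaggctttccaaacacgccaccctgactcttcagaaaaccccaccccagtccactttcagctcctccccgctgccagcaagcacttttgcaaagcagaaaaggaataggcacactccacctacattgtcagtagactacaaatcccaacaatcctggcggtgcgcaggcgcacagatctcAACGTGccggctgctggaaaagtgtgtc
Arntl, chr7:113207215-113207464, plus strand: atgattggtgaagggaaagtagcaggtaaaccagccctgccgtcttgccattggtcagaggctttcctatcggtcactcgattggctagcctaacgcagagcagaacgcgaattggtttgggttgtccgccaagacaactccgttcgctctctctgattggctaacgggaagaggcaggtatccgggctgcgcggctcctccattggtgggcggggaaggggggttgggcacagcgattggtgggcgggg

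Per1 held an E-box at -166 and a D-box at -24. Per3 held a pair of D-boxes at -205 and -158. Cry1 held an E-box at -60 and an E-prime box at -79, while Cry2 and Nr1d1 each held an E-prime box, at -166 and -28. No match lay in the windows of Arntl, Clock, Nr1d2 or Dbp. Among 32851 windows of the same length from all genes, 6.02% held the E-box, 3.85% the E-prime box, 3.07% the D-box and 1.87% the ROR/REV-ERB element.

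Total counts ran from 49.8 M to 131.6 M per library. Ctcf in the heterozygous libraries lay at 61.4% to 67.2% of the WT mean in the 5 tissues, with no overlap between groups. Markers of each tissue's main cells were far higher in that tissue than elsewhere. Hepatocyte markers summed to 714 to 1158 CPM (counts scaled by library size) in brain, against 139669 CPM or more in liver. Oligodendrocyte markers reached 120 CPM in spleen, against 5014 CPM or more in brain. Skeletal muscle markers summed to 144 CPM in the WT and 182 CPM in the heterozygous kidney library numbered 3. In the other kidney libraries they summed to 0.0838 to 0.259 CPM. Red-cell markers in spleen were highest in the WT library numbered 1 (83957 CPM) and the heterozygous library numbered 2 (71828 CPM). Those spleen libraries also had the lowest Clock, Arntl, Per2, Per3 and Nr1d2 of the 6. Pancreas acinar markers summed to 1332 CPM in the heterozygous spleen library numbered 2, against 18.9 to 173 CPM in the other spleen libraries. The part of the cell mix in the clock gene levels was not tested. In bulk tissue, fewer cells of a type and less RNA per cell cannot be told apart. The brain libraries were not restricted to the suprachiasmatic nucleus: its markers Avp, Vip and Six6 summed to 44.4 to 55.3 CPM, against 3670 to 4812 CPM for 3 neuron markers.

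In WT mice several of the repressors stood apart in 1 or more tissues. Levels between genes are compared here as CPM per kb of exon after TMM scaling over the 15 WT libraries. Cry2, a cryptochrome repressor, was highest in brain at 15.2 ± 1.13 CPM per kb (SD, n = 3) and lowest in spleen at 1.43 ± 0.0406, with the 3 brain libraries above and the 3 spleen libraries below every other library. Nr1d1 was lowest in spleen at 0.764 ± 0.0888 CPM per kb, against 12.8 ± 5.80 in kidney, 25.9 ± 3.10 in brain, 38.3 ± 32.4 in liver and 58.4 ± 17.1 in muscle. All 3 spleen libraries lay below every other library for Nr1d1, whereas liver overlapped its neighbours in the order. Its paralog Nr1d2 followed a flatter order, from 4.40 ± 1.36 CPM per kb in spleen to 27.5 ± 9.40 in muscle, and brain, liver and kidney lay within 12.4 to 13.8, with the spleen libraries below all others. Cry1, the other cryptochrome, was highest in muscle at 6.96 ± 1.57 CPM per kb and lowest in kidney at 0.922 ± 0.270. Neither tissue overlapped another under this scaling, but the place of muscle depended on it (below).

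The activators had no tissue that stood apart at the top. Arntl lay at 4.81 ± 1.98 CPM per kb in muscle, 3.66 ± 0.214 in brain, 2.77 ± 1.26 in liver, 1.99 ± 0.297 in spleen and 1.32 ± 0.551 in kidney, and each tissue overlapped the next one in that order. Clock, its partner, lay at 4.05 ± 0.472 CPM per kb in brain, 3.97 ± 0.826 in liver, 3.08 ± 0.542 in muscle, 2.52 ± 0.414 in kidney and 1.30 ± 0.381 in spleen, where only kidney and spleen were separate neighbours. The period genes, which encode the repressors that partner the cryptochromes, were highest on average in brain: Per1 at 12.2 ± 3.64, Per2 at 3.50 ± 1.98 and Per3 at 2.06 ± 0.101 CPM per kb. Per1 was lowest on average in liver at 3.78 ± 3.92, Per2 in muscle at 0.864 ± 1.16 and Per3 in spleen at 0.399 ± 0.152 CPM per kb, and every neighbouring pair of tissues overlapped for all 3. Dbp, the D-box activator, ranged from 2.26 ± 0.306 CPM per kb in spleen to 19.9 ± 13.7 in muscle, again with every neighbour overlapping.

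Over the 10 genes, 9 of 40 neighbouring pairs of tissues had libraries that did not overlap. The edgeR quasi-likelihood test called a tissue difference (Benjamini-Hochberg adjusted p under 0.05) for 7 of the 10, where 98.0% of all genes tested were called. The other 3 had adjusted p-values of 0.0629 (Per1), 0.119 (Per2) and 0.0870 (Dbp). That fit takes the 15 libraries as independent, and with the replicate number as a block all 10 were called, these 3 included (97.8% of all genes). The order of tissues partly rests on scaling. TMM factors ran from 0.573 to 0.732 in muscle and liver and from 1.26 to 1.59 in the other tissues. With CPM from total counts instead, 5 of the 10 genes kept the same highest tissue and 9 the same lowest. Arntl and Cry1 in muscle went from the highest to the third place. Cry1 then stood at 4.04 CPM per kb in muscle, below 7.30 in spleen and 6.11 in brain. Nr1d1 in brain went from the third to the highest place, whereas Cry2 stayed highest in brain and Nr1d1 lowest in spleen.

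**Figure D1:**
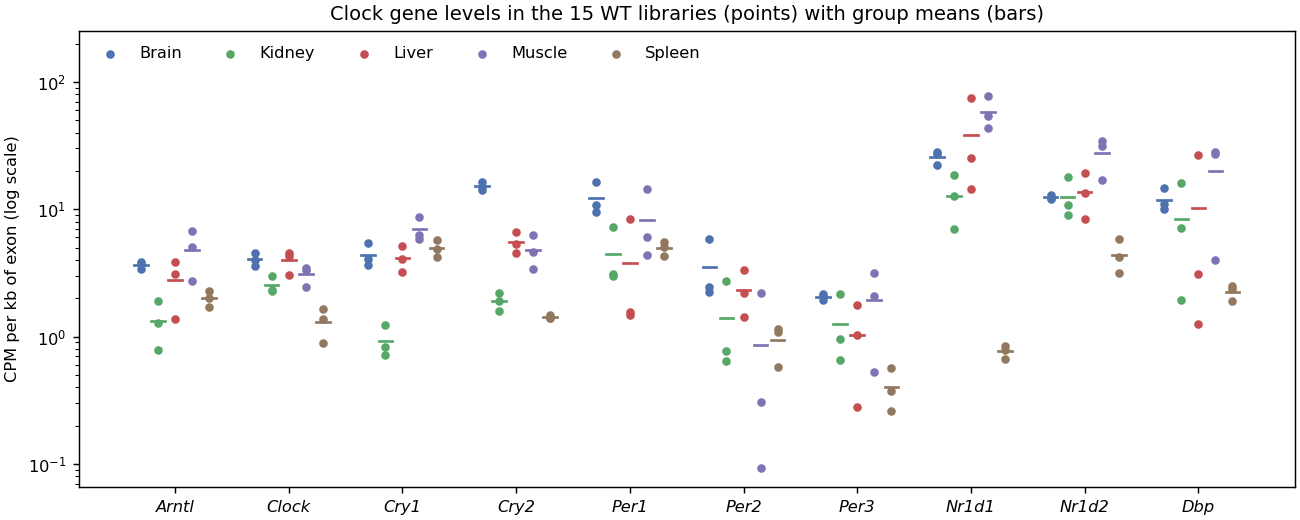
Level of each clock gene (CPM per kb of exon, TMM-scaled, log axis) in the 15 WT libraries; points are libraries, bars are means of 3, colours are tissues. Nr1d1 in spleen sits apart near 0.764, Cry2 in brain near 15.2, and the 3 liver points of Dbp spread from 1.26 to 26.5.

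Levels within a tissue are given below as CPM from each tissue's own TMM scaling, in the order of replicates 1, 2 and 3. Dbp spread widely between libraries of the same genotype. In kidney, Dbp stood at 7.65, 62.9 and 27.6 CPM in WT and 36.1, 82.5 and 57.3 CPM in heterozygous libraries. In liver, Dbp stood at 2.47, 52.3 and 6.45 CPM in WT and 4.15, 3.45 and 18.7 CPM in heterozygous libraries. In muscle, Dbp stood at 7.05, 48.7 and 47.9 CPM in WT and 13.7, 92.9 and 45.3 CPM in heterozygous libraries. The library numbered 1 was thus the lowest WT library in all 3 tissues, and the library numbered 2 the highest of both groups in kidney and muscle, while in liver the numbered-2 library was highest in WT and lowest in heterozygous mice. The highest library exceeded the lowest 10.8-fold in kidney, 21.0-fold in liver and 13.2-fold in muscle, against a median over all genes of 1.41-, 1.55- and 1.51-fold. Brain and spleen lacked this spread: Dbp stood at 46.2, 60.8 and 42.1 CPM in WT and 62.2, 75.0 and 50.9 CPM in heterozygous brain, and at 10.7, 8.70 and 10.7 CPM in WT and 8.16, 11.9 and 7.21 CPM in heterozygous spleen. Dbp counts carry a reserve, since 18% of its exon bases (chr7:45705088-45710203, GRCm38, plus strand) are shared with Sphk2 on the other strand and fragments were counted without strand.

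Arntl moved the other way. In kidney, Arntl stood at 18.6, 7.67 and 12.5 CPM in WT and 9.66, 4.87 and 9.32 CPM in heterozygous libraries. In liver, Arntl stood at 18.8, 6.87 and 16.0 CPM in WT and 17.3, 18.7 and 14.4 CPM in heterozygous libraries. In muscle, Arntl stood at 29.5, 11.9 and 22.0 CPM in WT and 28.0, 5.58 and 15.9 CPM in heterozygous libraries. In each of these groups the library with the lowest Arntl was the one with the highest Dbp. Arntl varied less in spleen, at 19.2, 22.8 and 24.6 CPM in WT and 25.2, 15.7 and 22.6 CPM in heterozygous libraries, and least in brain, at 39.5, 35.5 and 40.2 CPM in WT and 38.1, 33.0 and 36.9 CPM in heterozygous libraries.

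The difference between log2 Dbp and log2 Arntl within a library does not depend on library scaling. It was -1.28, 3.03 and 1.15 in WT and 1.90, 4.08 and 2.62 in heterozygous kidney. It was -2.93, 2.93 and -1.31 in WT and -2.05, -2.44 and 0.37 in heterozygous liver. It was -2.07, 2.03 and 1.12 in WT and -1.03, 4.06 and 1.51 in heterozygous muscle. Kidney and muscle thus put the libraries in nearly the same order, with number 2 of either genotype at the top and WT number 1 at the bottom, and liver departed from it through heterozygous number 2. The range between libraries was 41.1-fold in kidney, 58.0-fold in liver and 69.6-fold in muscle. In brain the difference was 0.22, 0.78 and 0.07 in WT and 0.71, 1.18 and 0.46 in heterozygous libraries, a 2.17-fold range, but number 2 was again the highest of each genotype. In spleen it was -0.85, -1.39 and -1.20 in WT and -1.63, -0.40 and -1.64 in heterozygous libraries, a 2.37-fold range. WT number 2 held the first or second place among the 6 libraries in 4 of 5 tissues, heterozygous number 2 also in 4 of 5, and WT number 1 the fifth or sixth place in 4 of 5.

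**Figure D2:**
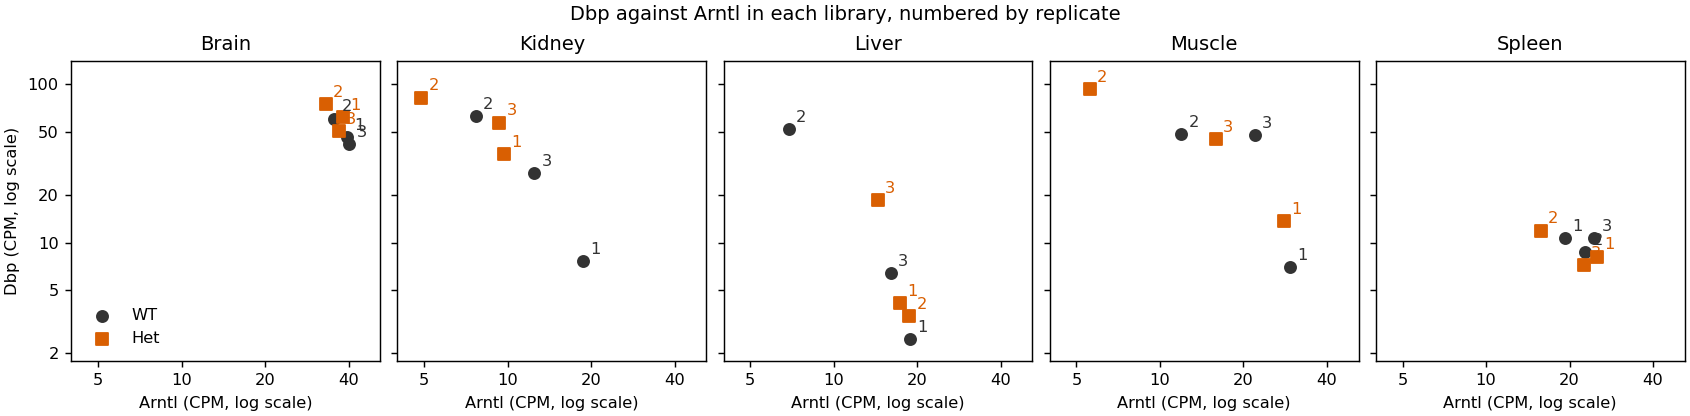
Dbp against Arntl (CPM, both axes log) in each of the 6 libraries of a tissue; circles are WT, squares heterozygous, and digits are replicate numbers. Kidney, liver and muscle libraries fall along descending lines, with Dbp from 2.47 to 52.3 CPM in liver, while brain and spleen libraries lie close together.

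In kidney and muscle each period gene was highest in the same library as Dbp, number 2, in both genotypes. Other tissues partly went the other way. In heterozygous spleen Per2 and Per3 were lowest in number 2, where Dbp was highest. In WT spleen Per1 and Per2 were highest in number 2, where Dbp was lowest. In heterozygous liver Per1 was lowest in number 3, where Dbp was highest. Per2 in muscle stood at 0.317, 7.41 and 1.04 CPM in WT and 1.62, 8.58 and 2.46 CPM in heterozygous libraries, a 25.5-fold range. Per2 in kidney stood at 4.93, 20.9 and 5.81 CPM in WT and 12.7, 36.0 and 7.79 CPM in heterozygous libraries. Per2 in brain stood at 20.1, 46.8 and 18.5 CPM in WT and 25.8, 51.3 and 23.7 CPM in heterozygous libraries, so that library 2 was above the others of both genotypes in all 3 tissues with no overlap. Per1 in liver stood at 5.73, 30.9 and 5.75 CPM in WT and 9.26, 9.04 and 6.57 CPM in heterozygous libraries, where WT number 2 alone was high. Per1 in kidney stood at 22.0, 53.4 and 22.5 CPM in WT and 30.0, 61.3 and 22.8 CPM in heterozygous libraries, again highest in number 2. Per3 in muscle stood at 2.99, 17.6 and 11.6 CPM in WT and 6.71, 19.8 and 13.1 CPM in heterozygous libraries, an order shared with Dbp in the heterozygous group and in WT.

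The other repressors were mixed. Cry1 in kidney stood at 3.28, 4.80 and 2.78 CPM in WT and 3.89, 7.64 and 3.61 CPM in heterozygous libraries. Cry2 in muscle stood at 12.7, 23.1 and 17.1 CPM in WT and 14.3, 22.7 and 15.2 CPM in heterozygous libraries. Number 2 was the highest of both groups in each case. Nr1d1 in liver stood at 28.8, 152.7 and 53.6 CPM in WT and 60.3, 58.4 and 106.9 CPM in heterozygous libraries, in the same order as Dbp in WT and with number 3 the highest in heterozygous mice for both genes. In muscle, by contrast, Nr1d1 was lowest in number 2, at 97.9, 77.6 and 138.9 CPM in WT and 124, 83.9 and 118 CPM in heterozygous libraries. Nr1d2 in kidney stood at 59.2, 115.8 and 70.6 CPM in WT and 89.2, 149.8 and 85.1 CPM in heterozygous libraries, highest in number 2 of both. Clock, which oscillates little in most tissues, had narrower ranges over the 6 libraries than Arntl in kidney (1.52-fold against 3.81-fold), liver (1.74 against 2.74) and muscle (1.97 against 5.27). Its range was wider than that of Arntl in brain (1.30-fold against 1.22-fold) and spleen (2.17 against 1.60).

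**Figure D3:**
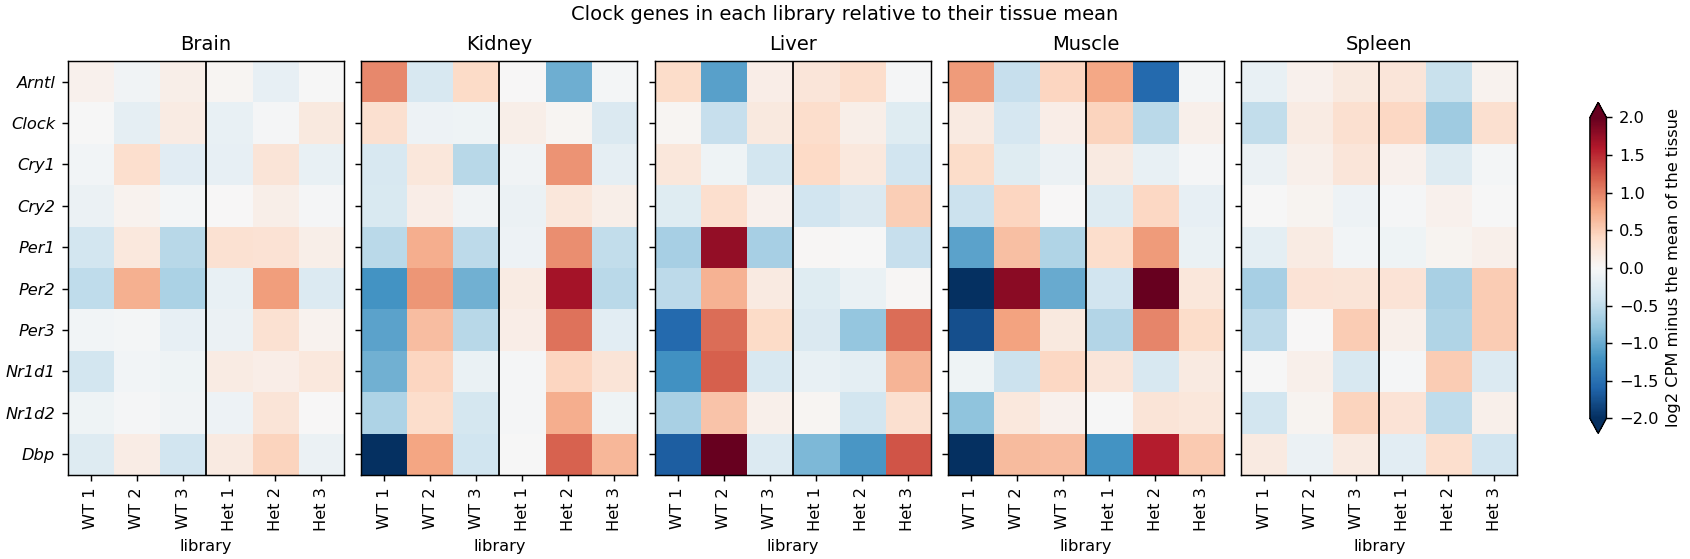
Difference of each library's log2 CPM from the mean of its tissue, for the 10 genes (rows) in the 6 libraries of each tissue (columns); red is higher, blue lower, and colours saturate at 2 in either direction. In kidney and muscle the columns numbered 2 are red for Per2, Per3 and Dbp and blue for Arntl in both genotypes.

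Set against all genes tested in a tissue, the SD of log2 CPM over the 6 libraries placed 3 of the 10 members above 95% of genes in kidney, 4 in liver, 4 in muscle, 1 in brain (Per2) and 0 in spleen. The median member exceeded 91.2% of genes in kidney, 83.3% in liver, 84.6% in muscle, 62.8% in brain and 40.4% in spleen. Dbp had an SD of 1.24 in kidney, 1.68 in liver and 1.38 in muscle, against medians over all genes of 0.188, 0.240 and 0.223. Cry2 in spleen was among the steadiest genes, with only 1.46% of genes having a smaller SD.

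**Figure D4:**
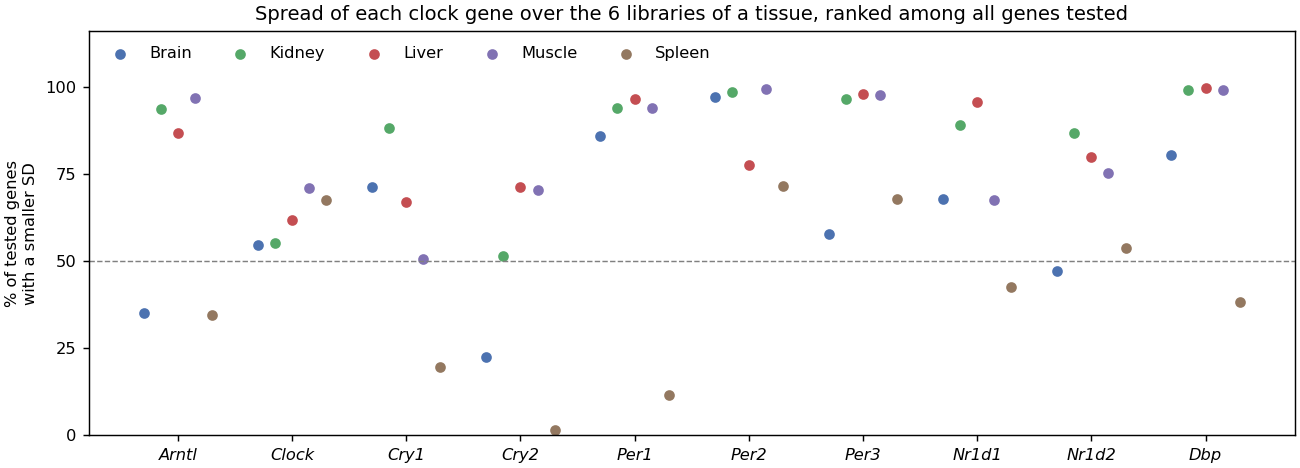
Percentage of tested genes whose SD of log2 CPM over the 6 libraries of a tissue was smaller than that of each clock gene; colours are tissues and the dashed line marks 50%. Dbp, Per3 and Per2 lie above 96% in kidney and muscle, whereas spleen points lie at 71.6% or lower.

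Because the pattern followed the replicate number, the number was tested as a factor beside genotype within each tissue, a test added after these values had been seen. With the edgeR quasi-likelihood test adjusted over all genes, 3 members were called in kidney (Per1, Per2 and Nr1d2) where 0.280% of all genes were, and 4 in muscle (Arntl, Per2, Per3 and Dbp) where 1.24% were. In brain 3 were called (Per2, Cry1 and Dbp), where 10.6% of all genes were. Without either kidney library numbered 2 no kidney member was called, and without any other single kidney library 7 or 8 were, where 2.12% to 4.67% of all genes were. Liver gave 0 calls (background 0.0128%), and spleen gave 0 (background 0%). An unadjusted p under 0.05 (edgeR) was found for 10 members in kidney, 10 in muscle, 7 in brain, 2 in liver and 0 in spleen. The shares of all genes with such a p were 9.84%, 12.5%, 26.0%, 9.58% and 1.45%, in the same order. Any fit without 1 library leaves 1 number with 1 library, which is assumed to vary like the others. The liver libraries numbered 2 differed from each other, with Dbp at 52.3 CPM in WT and 3.45 CPM in heterozygous mice. A fit without either of them drops this disagreement, so it cannot decide whether the number matters in liver.

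The p-values of this test are for any difference among the 3 numbers, so the differences between numbers that follow are descriptions on the log2 scale. In muscle, where the adjusted p was 0.00662 for Dbp, 0.0133 for Per2, 0.0167 for Per3 and 0.0173 for Arntl (edgeR), the mean of the number 2 libraries minus that of number 1 was 2.77 for Dbp, 3.43 for Per2, 2.06 for Per3 and -1.81 for Arntl. Number 2 minus number 3 was smaller in size, at 0.53 for Dbp, 2.30 for Per2, 0.60 for Per3 and -1.19 for Arntl, so for Dbp and Per3 number 1 was the one farthest from the others. In kidney, where the adjusted p was 0.00833 for Per2, 0.00586 for Per1 and 0.0475 for Nr1d2 (edgeR), number 2 minus number 1 was 1.79, 1.15 and 0.86, and number 2 minus number 3 was 2.03, 1.34 and 0.77. In brain, where the adjusted p was 3.17e-05 for Per2, 0.00697 for Cry1 and 0.00200 for Dbp (edgeR), number 2 minus number 1 was 1.10, 0.40 and 0.33, and number 2 minus number 3 was 1.23, 0.49 and 0.55. Per2 was called in all 3 of these tissues. Over all 10 tissue and genotype groups, number 2 was the highest library for Cry2 in 9, for Dbp and Per2 in 8, and for Per1, Per3 and Nr1d2 in 7. It was the lowest for Arntl in 8 and for Clock in 6. For Nr1d1 it was highest in 6 and lowest in 4, and for Cry1 highest in 4 and lowest in 3. Over all genes it was highest in 32.0% and lowest in 32.3% of cases. Tissues came from shared mice, and number 2 was singled out after seeing these values. The groups are thus not independent cases, and the counts are descriptions.

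Some other genes of the loop were called for the number as well. Of the 19 listed, 5 of 18 tested were called in muscle, where 1.24% of all genes were: Npas2, Ciart, Nfil3, Bhlhe41 and Hlf. In kidney 2 of 19 were called, where 0.280% of all genes were: Ciart, a repressor of CLOCK and ARNTL, with number 2 above number 1 by 2.44 on the log2 scale, and Npas2, a paralog of Clock, at -1.62. In brain 3 of 19 were called (Rorb, Bhlhe40 and Bhlhe41), near the 10.6% of all genes called there. In liver and in spleen 0 of 18 were called (edgeR), with 3 and 0 at an unadjusted p under 0.05, where 9.58% and 1.45% of all genes were. Of 11 clock output genes, 5 were called in brain and 4 in muscle (10.6% and 1.24% of all genes). Noct, a deadenylase-family phosphatase, was called in both, with number 2 minus number 1 at 0.28 in brain and 1.14 in muscle. Cdkn1a was also called in both, but by the same difference it stood at 0.70 in brain and -1.71 in muscle. The other calls in muscle were Usp2, a deubiquitinase, at 1.16 and Pdk4 at -0.82. Those in brain were Wee1, Por and Lonrf3. None of the 11 was called in kidney, liver or spleen (edgeR), with 7, 6 and 0 at an unadjusted p under 0.05, where 9.84%, 9.58% and 1.45% of all genes were.

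Lists for other influences were called in part, with the most calls in brain. Of all genes, 10.6% were called there, against 1.24% for muscle and 0.280% for kidney. Of 10 glucocorticoid-responsive genes, 6 were called in brain, 2 in kidney, 2 of 9 in muscle and 0 in liver and spleen (edgeR, with 2 and 1 at an unadjusted p under 0.05). Tsc22d3 (GILZ), a glucocorticoid-induced regulator, was called in all 3, with number 2 above number 1 by 0.51 in brain, 1.25 in kidney and 1.10 in muscle on the log2 scale. Fkbp5, another glucocorticoid-induced gene, stood at 0.33 in brain and -1.77 in muscle by the same difference. Of 10 temperature-linked genes 3 were called in brain, 1 in muscle and 0 in kidney, liver and spleen (edgeR, with 4, 7 and 0 at an unadjusted p under 0.05). Of 10 immediate early genes 4 were called in brain and 0 in kidney, liver, muscle and spleen (edgeR, with 1, 1, 8 and 0 at an unadjusted p under 0.05). The shares of all genes with an unadjusted p under 0.05 (edgeR) were 12.5% (muscle), 9.84% (kidney), 9.58% (liver) and 1.45% (spleen). Temperature-linked genes in liver (7 of 10) and immediate early genes in muscle (8 of 10) lay above these shares. Immediate early genes in kidney and liver (1 of 10 each) lay near them. Calls of glucocorticoid-responsive genes exceeded the share of all genes in brain, kidney and muscle, as did those of the clock members. The part of hormone state, temperature, handling and time of collection in the members' pattern was not tested.

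Likeness was described by Pearson's r over the 30 libraries after subtracting each group's mean, for 11744 genes. The libraries share depth, handling and, across tissues, mice, and no test was made. Deviations were not scaled by tissue. The SD of log2 Dbp was 1.24 in kidney, 1.68 in liver and 1.38 in muscle, against 0.309 in brain and 0.277 in spleen. Values of r with Dbp thus rest mainly on kidney, liver and muscle and need not hold in brain or spleen. Dbp was most like Tef (r = 0.918), its relative in the same family of D-box activators, then Ciart (0.884), Per3 (0.852), Cry2 (0.851) and Slc37a4 (0.828), a glucose-6-phosphate transporter. It was least like Arntl (-0.829), Rab33b (-0.826) and Ajuba (-0.812). Arntl was most like Npas2 (0.925), Zfp143 (0.784), Trim13 (0.774), Rab33b (0.753) and Trim5 (0.750), and least like Ciart (-0.899), Dbp (-0.829) and Mapk11 (-0.816). Among the members, r with Dbp was 0.738 for Nr1d2, 0.702 for Nr1d1, 0.660 for Per1, 0.622 for Per2, -0.190 for Cry1 and -0.613 for Clock.

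Genotype was the comparison the study was designed for. None of the 10 clock genes was called between heterozygous and WT mice in any tissue by edgeR, DESeq2 or limma-voom. The edgeR background was 0.242% of genes called in spleen, 0.0249% in muscle, 0.0211% in kidney, 0.0193% in liver and 0.0157% in brain. At an unadjusted p under 0.05, brain had 2 members by edgeR and limma-voom and 3 by DESeq2, and the other tissues had 0 by each. Of all genes, 2.96% had such a p by edgeR in brain, 6.44% in kidney, 6.45% in muscle, 4.56% in liver and 3.52% in spleen. The median log2 fold change of the members (heterozygous over WT) was 0.38 in kidney, 0.16 in muscle, 0.15 in brain, 0.03 in spleen and -0.07 in liver, while that of all genes lay between -0.01 and 0.

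Brain Nr1d1 had the smallest unadjusted p of the members in these edgeR fits. It stood at 96.7, 119.7 and 118 CPM in WT and 139.8, 137 and 145 CPM in heterozygous brain, so the groups did not overlap. The means were 111 ± 12.7 and 140.4 ± 4.01 CPM (SD, n = 3), a log2 fold change of 0.33 with an SE of 0.0864, but the edgeR p of 0.00458 became 0.99999 after adjustment. Nr1d1 shares 8.55% of its exon bases with Thra on the other strand. Groups did not overlap in 1 of 50 member and tissue pairs, against a background of 12.2% of genes in muscle, 11.4% in kidney, 8.99% in liver, 7.83% in brain and 6.64% in spleen. Brain Per1, the other member with a small unadjusted p (0.0369, edgeR), stood at 85.4, 127 and 75.1 CPM in WT and 135.7, 134 and 120.1 CPM in heterozygous libraries, which overlapped.

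The largest fitted differences were in the most variable genes. Dbp in liver had a log2 fold change of -1.23 with an SE of 1.06, from means of 20.4 ± 27.7 CPM in WT and 8.76 ± 8.59 CPM in heterozygous mice, and it became 0.97 when the WT library numbered 2 was left out. Dbp in kidney had a log2 fold change of 0.84 with an SE of 0.617, Per2 in kidney 0.84 with 0.665, and Arntl in kidney -0.70 with 0.343. Leaving out 1 library moved kidney Dbp between 0.37 and 1.73 and kidney Arntl between -0.96 and -0.34, with the same direction each time. Dbp in muscle had 0.55 with an SE of 0.779, and it became -0.23 without the heterozygous library numbered 2. With the replicate number as a block, which absorbs the differences between numbers, 0 members were again called in each tissue. An unadjusted p under 0.05 (edgeR) was found for 5 members in brain, 7 in kidney, 5 in muscle and none in liver or spleen. The share of all genes with such a p was not counted under this block, so these counts stand without a background. Under this block the lowest adjusted p of a member was 0.0649 in brain, for Dbp (log2 fold change 0.34), followed by 0.107 for Nr1d1 (0.34), and 0.129 in kidney, for Arntl (-0.67, edgeR).

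**Figure D5:**
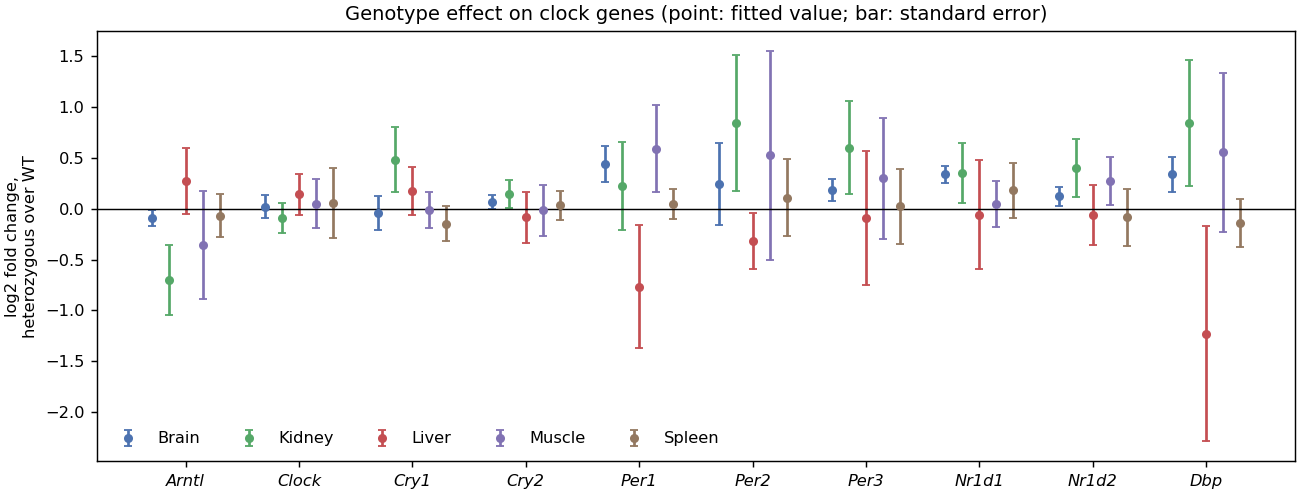
Fitted log2 fold change of each clock gene, heterozygous over WT, in each tissue, with its standard error as the bar. The standard errors of Cry2 stay at or below 0.251, those of Dbp reach 1.06, and the liver value of Dbp is the lowest at -1.23.

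The mean of the Dbp minus Arntl difference was higher in heterozygous mice by 0.43 in brain, 1.90 in kidney and 1.15 in muscle, and differed by -0.93 in liver and -0.08 in spleen, with overlapping groups in all 5 tissues. The larger SD within a group was 2.16 in kidney, 3.03 in liver and 2.54 in muscle, above the size of the difference in the same tissue. The heterozygous kidney SD of 1.11 was below the kidney difference. In brain the SD was 0.37 in both groups, below the difference of 0.43. In spleen the SDs were 0.27 in WT and 0.71 in heterozygous mice. Between libraries of the same number, the heterozygous value was the higher in 3 of 3 pairs in brain (by 0.39 to 0.49), kidney (by 1.05 to 3.18) and muscle (by 0.39 to 2.03), in 2 of 3 in liver and in 1 of 3 in spleen. These paired differences were not tested, and the numbers met the check for pairing in brain and kidney only. Leaving out 1 library moved the kidney mean difference between 0.77 and 2.93. Without the heterozygous library numbered 2 the muscle value became -0.12, and without the WT library numbered 2 the liver value became 0.75.

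A fit over all 30 libraries called no effect of genotype common to the tissues in any member (edgeR, 0 called and 0 at an unadjusted p under 0.05, background 0.194% called). This fit and the interaction test below take the 30 libraries as independent, although the tissues came from shared mice. Their SEs and p-values do not account for that. The fitted shared log2 fold changes ran from -0.17 for Arntl (SE 0.185) to 0.30 for Per2 (SE 0.332). The test of whether the genotype effect differed between tissues called 0 members, with 0 at an unadjusted p under 0.05 (edgeR; background 0.758%). None of the other loop genes, output genes, glucocorticoid-responsive, temperature-linked or immediate early genes was called by edgeR for genotype in any tissue. Ciart was nearest in brain (log2 fold change 0.60, SE 0.121, unadjusted p = 0.00108, adjusted p = 0.838, edgeR), where the groups did not overlap at 10.1 ± 1.73 CPM in WT and 15.4 ± 0.394 CPM in heterozygous mice. Bhlhe40, an E-box-binding repressor, had a liver log2 fold change of -1.06 (SE 0.204, unadjusted p = 0.000721, adjusted p = 0.388, edgeR) and the smallest interaction p of the loop genes, 0.000565, with an adjusted p of 0.0660. Usp2 in spleen stood at 1.46 ± 0.341 CPM in WT and 2.85 ± 0.118 CPM in heterozygous mice without overlap, with an adjusted p of 0.569 (edgeR). Adipocyte markers in muscle moved with genotype, from 20.8 to 60.9 CPM in WT and 109.7 to 289.8 CPM in heterozygous libraries, and hepatocyte markers in spleen ran from 30.7 to 39.4 CPM in WT and 0.0400 to 0.165 CPM in heterozygous libraries; their part in these comparisons was not tested.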

How the data were processed

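Each of the 30 libraries was assigned to a tissue, genotype and replicate number from its title. The deposited values are raw counts of fragments per gene, which the authors obtained using featureCounts (1.5.0-p3) with the GRCm38 annotation of Ensembl release 86, over exons and without strand, per the file headers; fragments overlapping several genes were left out by that command. STAR, FastQC and DESeq2 are named in the submitters' processing notes, with no version. The deposited gene length (merged exon bases) served for levels per kb.

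Counts were tested in R 4.3.3 with edgeR 4.0.16 (quasi-likelihood, filterByExpr, TMM), separately per tissue, over all 30 libraries (shared effect, interaction) or over the 15 WT libraries (tissue). P-values were adjusted by the Benjamini-Hochberg method over all genes tested and called under 0.05. Alternatives used DESeq2 1.42.0, limma-voom (limma 3.58.1), other scalings and filters, a replicate block, and leaving out libraries. Depth was 49.8 M to 131.6 M counts per library. The Dbp minus Arntl difference used a prior count of 0.5, and likeness a prior count of 2. No pair of replicates agreed within sampling noise (30 pairs, chi-square per degree of freedom 15.4 or more), and no column of another sample was found. The genotype fit was tested on simulated data.

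The replicate numbers were checked as pairs by correlating same-numbered deviations from group means across genes: r was 0.207 to 0.537 in brain and 0.190 to 0.212 in kidney, over 0.1 in every pair, and did not reach this in all pairs of liver, muscle or spleen. Differently numbered pairs were not part of this check. In brain, WT number 2 with heterozygous number 1 had r = 0.216, so the check cannot decide the pairing there. In kidney the highest differently numbered r was -0.0390.

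The members, the gene lists and the tests were chosen with earlier results of these data known. All 10 members are named; from each list, the genes that passed the threshold and up to 4 with the smallest unadjusted p could be named, and likeness names the 5 highest and 3 lowest genes, leaving out unnamed gene models and pseudogenes.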

Additional observations from a re-analysis of the deposited data

How the results depend on the processing

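The count of clock genes called for genotype was 0 in each of the 5 tissues under every alternative run, and so were the shared effect and the interaction. With the replicate number as a block it was 0 in each tissue as well, and the block changed no call; for the tissue difference in WT the paired (block) fit called 10 of 10 members against 7, other scalings or filters 8 or 9, and leaving out 1 library 6 to 9. Uncalled log2 fold changes changed sign as follows. In liver, Dbp ran from -2.42 to 0.97 and Arntl from -0.053 to 0.56 with 1 library left out, and without both libraries numbered 2 they were 1.37 and -0.13. In muscle, Dbp ran from -0.23 to 1.01 and Arntl from -0.96 to 0.044 with 1 library left out. In spleen, Dbp ran from -0.39 to 0.002 and Arntl from -0.22 to 0.10, and Arntl was 0.11 without both libraries numbered 2. The count of members called for replicate number ran from 4 to 9 in muscle, 3 to 6 in brain, 0 to 5 in liver and 0 to 8 in kidney with 1 library left out, where the number then left with a single library is assumed to vary like the others; the cause was not tested. The count stayed at 0 in spleen. In the same runs the share of all genes called ran from 1.25% to 5.35% in muscle and from 5.90% to 17.1% in brain. That share ran from 0.0628% to 2.97% in liver, 0.149% to 4.67% in kidney and 0% to 0.929% in spleen. DESeq2 size factors and total counts gave 3 called members in brain, 2 in kidney, and 4 or 5 in muscle. Of all genes, 9.67% to 10.5%, 0.195% to 0.222% and 1.17% to 2.43% were called there. The alternatives that leave out both libraries numbered 2, and all those on replicate number, were chosen after seeing the data. With 3 mice per group, the smallest p of an exact permutation test is 0.1, and the time of day was not given in the sources used here.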
